A study of Mus musculus with 2 samples.

Results

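The genes described here are 7 chemokine-system genes known for placing cells in lymphoid tissue or for attracting eosinophils and type 2 lymphocytes: the chemokines Ccl11, Ccl17, Ccl19, Ccl22 and Cxcl13 and the receptors Ccr4 and Ccr7. They were taken by symbol, 7 of the 32285 genes in the deposited matrices. The study profiled single cells from the brain of C57BL mice, 8-13 weeks old, carrying a disease that resembles neuromyelitis optica spectrum disorder (NMOSD), an autoimmune disease in which antibodies act on the astrocyte water channel aquaporin-4. Both samples bear the time label 24 h, whose starting point was not given in the sources used here, and differ in the surface gate: the CD45neg library holds cells without CD45, the pan-leukocyte protein, and the CD45pos library holds cells with it. There was 1 library of each gate, the number of animals behind a library was not given in the sources used here, and an untreated brain was not analysed here, so the values below describe 2 libraries and carry no test between conditions.

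Chemokines are small secreted proteins that bind receptors on moving cells and draw them along a gradient. Ccl19 is a ligand of Ccr7, the receptor that takes naive T cells and matured dendritic cells into lymph nodes, and Cxcl13 is the ligand of Cxcr5, which takes B cells into follicles. Ccl17 and Ccl22 are the ligands of Ccr4, carried by type 2 and regulatory T cells, and Ccl11 (eotaxin) acts on Ccr3, the receptor that defines eosinophil recruitment. In healthy brain tissue organised lymphoid structures are absent, and in chronic inflammation of the meninges Cxcl13 and Ccl19 are known from lymphoid-like aggregates.

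After filtering, 12817 cells with a median of 5412 UMIs (unique molecular identifiers, each a counted RNA molecule) remained in the CD45neg library, and 8432 cells with a median of 6088.5 UMIs in the CD45pos library. Each library was clustered alone, with the 7 genes and their pathway relatives kept out of the clustering, and clusters were named "-like" from marker lists that hold none of the 7. The gate matched its marker: Ptprc, which encodes CD45, had UMIs in 85.8% of CD45pos cells and 1.09% of CD45neg cells. The libraries shared 27 barcodes, and cells under those barcodes held 4 and 3 UMIs of the members in the CD45neg and CD45pos libraries. Levels are given as CPM, the gene's UMIs per 1000000 UMIs of the cells named, and the intervals are 95% exact intervals that cover counting error alone. A count of 3 UMIs is used as the limit of detection where a gene had none.

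All 7 genes are protein coding, at these positions of GRCm38. On chromosome 11, Ccl11 spans chr11:82057823-82062955 on the plus strand and Ccr7 chr11:99144196-99155077 on the minus strand. Ccl22 (chr8:94745590-94751699) and Ccl17 (chr8:94810453-94812036) lie on the plus strand of chromosome 8. Ccl19 is at chr4:42754525-42756577 and Ccr4 at chr9:114490316-114504916, both on the minus strand, and Cxcl13 is at chr5:95956951-95961068 on the plus strand.

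Ccl11 and Ccl19 lay on the CD45neg side and the other 5 genes on the CD45pos side. Ccl11 had 1444 UMIs in the CD45neg library and 8 in the CD45pos library, which is 17.5 against 0.108 CPM and a 162-fold ratio (81.8 to 375). Ccl19 had 260 against 4 UMIs, a 58.2-fold ratio (22.5 to 215). Both leukocyte-side values were of a few UMIs, so the 2 chemokines were close to the limit of detection among CD45pos cells.

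Ccl17 had 6 UMIs in the CD45neg library and 526 in the CD45pos library, a 97.9-fold ratio (44.7 to 268). Ccl22 had 8 and 833 UMIs, a 116-fold ratio (58.7 to 270). Ccr4 had 1 and 150 UMIs. Ccr7 had 0 and 1375 UMIs, at least 512-fold higher in the CD45pos library when 3 UMIs are put in place of the 0. Cxcl13 had a 14.8-fold ratio (12.2 to 18.2), from 110 and 1460 UMIs, the smallest of the 7 with all cells counted. Of its 110 CD45neg UMIs 109 came from 1 cell, and without that cell the log2 ratio was 10.67, resting on 1 UMI, and was no longer the smallest. These counts, 5 of 7 higher among CD45pos cells and 2 of 7 higher among CD45neg cells by at least 2-fold, stand beside 16.5% and 40.9% of the 18379 genes with at least 20 UMIs, and 18.3% and 46% of the 23948 genes with at least 1 UMI.

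**Figure D1:**
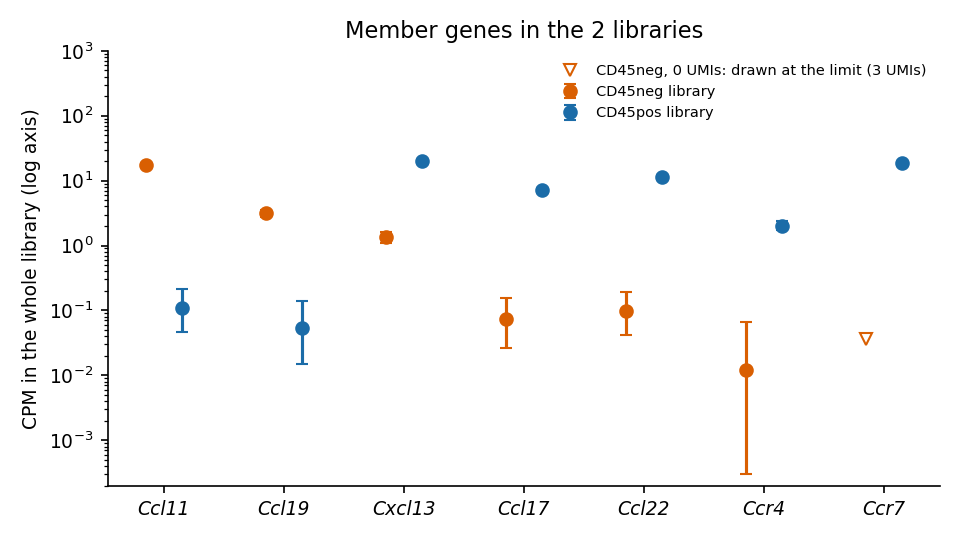
CPM of each member gene in the whole CD45neg (orange) and CD45pos (blue) libraries on a log axis, 1 library per gate, with 95% Poisson intervals (counting error); the open triangle stands for 0 UMIs and is drawn at 3 UMIs. Ccl11 and Ccl19 sit higher in orange, the other 5 genes higher in blue, and Ccr7 had no UMI in the CD45neg library.

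Ccl11, which encodes eotaxin-1, lay in 2 kinds of CD45neg cells: a cluster of 50 cells led by Il6, with 829 of the 1444 UMIs, and 1353 other pericyte-like cells, with 468. Pericytes are the contractile cells that wrap brain capillaries. The marker score put both kinds in 1 pericyte-like class of 1403 cells, which held 1297 UMIs, 89.8% (88.1 to 91.3), at 253 CPM (240 to 267), with a UMI in 172 cells (12.3%). Without the Il6-led cluster the class had 98.6 CPM (89.8 to 108). The leading genes of that cluster hold no pericyte marker and 1 fibroblast marker, so its name is uncertain. Between 6 and 10 of the 10 pericyte markers were detected in each of its clusters. With the Il6-led cluster counted in, the class stood 133-fold (112 to 159) above the other cells, and 5.73% of 17254 genes were at least 4-fold higher in it. Another 77 UMIs lay in an unnamed cluster of 59 shallow cells (median 1275 UMIs), at 766 CPM (605 to 958), which shares Il6, Il11 and Ccl11 among its leading genes with the cluster described next. Oligodendrocyte-like cells, which are not known to make Ccl11, had a UMI in 0.215% of cells at a median depth of 8965 UMIs against 3406 in pericyte-like cells. Fibroblast-like cells of the meninges and vessel walls, a main source of eotaxin in other tissues, had 3 Ccl11 UMIs in 92 cells, or 5.73 CPM (1.18 to 16.8).

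The cluster led by Il6, which encodes the inflammatory cytokine interleukin-6, held 57.4% of the library's Ccl11, at 2221 CPM (2072 to 2377) with a UMI in 28 of its 50 cells. The 5 cells with most Ccl11 in the library, at 131, 84, 75, 61 and 61 UMIs, were all in this cluster. Its leading genes besides Ccl11 were Il6, Il11, Nts, Tnc, Cxcl1, Avpr1a, Csf3, Stc1 and Dcn, of which Dcn is on the fibroblast list, and 9 of the 10 pericyte markers were detected in it. Its summed pericyte markers came to 7382 CPM and its summed fibroblast markers to 5226 CPM, against 28921 and 5546 CPM in a neighbouring pericyte-like cluster led by Steap4. With a stricter cell filter (at least 1000 UMIs, 500 genes and at most 10% mitochondrial UMIs), 32 of the 50 cells fell into an unnamed cluster, and unnamed cells then held 54.1% of Ccl11 and pericyte-like cells 41.5%.

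Of the other 1353 pericyte-like cells 144 had a Ccl11 UMI. Among them the Steap4-led cluster held the most UMIs, 239 in 221 cells (226 CPM, 198 to 257), and a Saa1-led cluster of 55 cells had 167 CPM (125 to 218). The intervals of these 2 clusters overlap. The clusters led by Casq2 and Gm13861 had 58.4 CPM (44 to 76) and 61 CPM (44.2 to 82.2) and likewise could not be ordered. The 2 clusters led by Pde4c were low, at 15.8 CPM (8.17 to 27.6) and 9.59 CPM (2.61 to 24.5). Il6 itself did not mark the Steap4-led cells, which had 1 Il6 UMI in all. In pericyte-like cells with an Il6 UMI, 27 of 47 had Ccl11, and in those without, 145 of 1356 did. The median depth of these groups was 7964 and 3340.5 UMIs, and the part of depth in this difference was not tested.

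**Figure D2:**
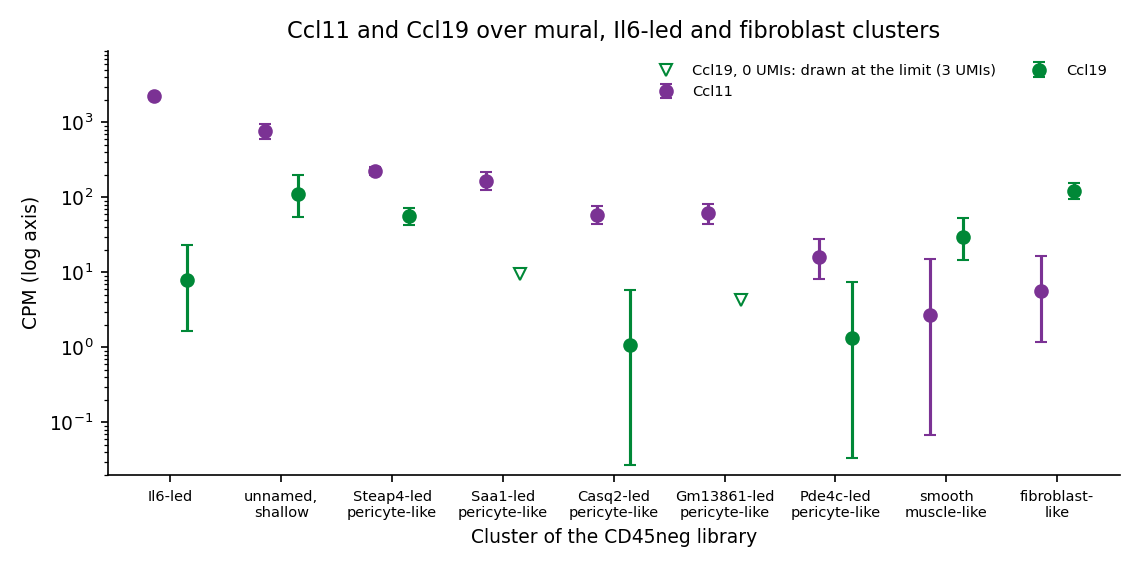
Ccl11 (purple) and Ccl19 (green) in 9 clusters of at least 50 mural, fibroblast or Il6-led cells of the CD45neg library, in CPM on a log axis with 95% Poisson intervals; open triangles mark 0 UMIs, drawn at 3 UMIs. Of the clusters drawn, Ccl11 is highest in the 50 Il6-led cells at 2221 CPM, Ccl19 is highest in fibroblast-like cells at 122 CPM, overlapping the shallow unnamed cluster, and the Steap4-led cluster carries both.

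Ccl19, the Ccr7 ligand that stromal cells of lymph nodes make, was spread over more cell types than Ccl11. By class it was highest in fibroblast-like cells, at 122 CPM (94.2 to 156), with 64 UMIs in 15 of 92 cells. This class stood 51.2-fold (38 to 68.2) above the other cells, and 5.65% of 17254 genes were at least 4-fold higher in it. Pericyte-like cells held more UMIs, 82 or 31.5% (25.9 to 37.6), but at 16 CPM (12.7 to 19.9) and in 22 of 1403 cells. Of these 82 UMIs, 59 came from the Steap4-led cluster, at 55.8 CPM (42.5 to 72), and 3 from the Il6-led cluster that held most of the Ccl11. A further 12 lay in 1 cell of a pericyte-like cluster of 9 cells, which thus had 175 CPM. Smooth muscle-like cells had 29 CPM (14.4 to 51.8), from 11 UMIs of which 10 were in 1 cell.

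Astrocyte-like cells held 63 Ccl19 UMIs, 24.2% of the library's, but as 1 UMI each in 44 of the 51 cells that had any, at 2.18 CPM (1.67 to 2.78). Oligodendrocyte-like cells, taken as a class without the gene, had 0.19 CPM and a UMI in 0.179% of cells, against 0.975% of astrocyte-like cells and 16.3% of fibroblast-like cells at median depths of 8965, 5231 and 4250.5 UMIs. A cluster of 712 astrocyte-like cells led by Ptx3 had 32 of the 63 UMIs, in 20 cells, of which 13 had a single UMI. In the astrocyte-like clusters led by Gm4710, Agt and Hapln1, each of the 11, 9 and 9 cells with Ccl19 had 1 UMI. Endothelial-like cells had 14 UMIs in 1425 cells. Of these, 10 lay in a cluster of 586 cells whose summed venous markers (3383 CPM) exceeded its capillary markers (1209 CPM), and 4 in a cluster of 622 cells with the opposite order (642 against 4427 CPM). Ccl19 appears on 2 rows of the matrices, the gene on chromosome 4 and a copy on an unplaced scaffold; the copy had 0 UMIs in both libraries, and reads that fit both copies could not be assigned.

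Ccl11 and Ccl19 met in few cells. In the CD45neg library 10 cells held UMIs of both, where the product of their shares gives 2.13 cells. In the pericyte-like class 7 cells held both, against 2.7, and 4 of the 47 cells with Ccl11 in the Steap4-led cluster also had Ccl19, against 3.19. The 2 transcripts shared a class and a cluster, and few cells had both at this depth.

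Ccl17 and Ccl22, the Ccr4 ligands, and the receptor Ccr7 came together in a small cluster of 48 dendritic cells. This cluster carried 12 of 14 markers of migratory dendritic cells, the matured state in which antigen-presenting cells leave a tissue for its draining lymph node, and its summed markers of that list reached 8489 CPM. It falls under the 50 cells set as the smallest class to be ranked and is given as an exception. Ccl22 had 659 UMIs there, 79.1% (76.2 to 81.8) of the library's, at 1750 CPM (1619 to 1889) and in 34 of 48 cells. Ccr7 had 823 UMIs, 59.9% (57.2 to 62.5), at 2186 CPM (2039 to 2341) and in 48 of 48 cells. Ccl17 had 144 UMIs, 27.4%, at 383 CPM (323 to 450) and in 20 of 48 cells.

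The 48 cells were not alike. Their Ccr7 counts ran from 1 to 62 UMIs with a median of 14. Their Ccl22 counts ran from 0 to 186 with a median of 2.5, and their Ccl17 counts from 0 to 26 with a median of 0. All 3 transcripts were found in 18 cells, and 12 cells had Ccr7 alone. Ccl22 without its highest cell came to 1299 CPM. T cell-like cells, which served as a class without these chemokines, had a Ccl22 UMI in 0.383% and a Ccl17 UMI in 0.0766% of cells, at a median depth of 4669 UMIs against 7938.5 in the migratory cells. With each cell thinned to 1000 UMIs, the shares of migratory cells with a UMI were 73.9% for Ccr7, 41.3% for Ccl22 and 19.6% for Ccl17.

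Against all other cells of the library, the migratory cells stood 740-fold (625 to 880) higher in Ccl22, 291-fold (261 to 325) in Ccr7 and 73.7-fold (60.4 to 89.5) in Ccl17. Of 14783 genes, 4.92% were at least 4-fold higher in these cells. The other members were at 0: no UMI of Ccl11, Ccl19, Ccr4 or Cxcl13 was counted in the 48 cells, which allows up to 7.97 CPM of each.

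Ccl17 and Ccl22 are neighbours on chromosome 8, separated by 58.8 kb, and both lie on the plus strand. Their promoters are shown because the 2 transcripts met in the same cells: 28 CD45pos cells held both, where the product of their shares gives 0.935. Over all cells this product is low wherever 2 genes share a cell type. Within the migratory class 18 cells held both, against 14.2. The sequences are from RefSeq on GRCm38.p6, at chr8:94810203-94810452 for Ccl17 and chr8:94745434-94745589 for Ccl22, each ending at the base before the annotated start of the gene. The Ccl22 stretch is shorter, since the RefSeq start lies inside the GENCODE gene. Capitals mark matches to the letters TTCNNNNGAA (the first run) and TTCNNNGAA (the second), the palindromes that STAT proteins are known to bind.
Ccl17: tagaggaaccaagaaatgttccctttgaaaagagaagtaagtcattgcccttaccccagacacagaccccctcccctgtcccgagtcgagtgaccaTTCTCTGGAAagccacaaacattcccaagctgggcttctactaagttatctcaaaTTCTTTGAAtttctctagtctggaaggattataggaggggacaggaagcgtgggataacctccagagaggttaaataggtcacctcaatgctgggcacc
Ccl22: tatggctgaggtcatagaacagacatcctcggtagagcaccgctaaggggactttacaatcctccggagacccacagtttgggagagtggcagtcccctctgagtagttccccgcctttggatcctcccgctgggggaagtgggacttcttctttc

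Both strands of the 250 bases before the RefSeq start were searched for these 2 palindromes, for TATAAA and for the NF-kB consensus, in the 5 members that the RefSeq table holds (all but Ccl11 and Ccr7). The Ccl17 matches begin 154 and 99 bases before the start, and the 2 motifs do not overlap there. Ccl22, Ccl19 and Ccr4 had no match to the 4 motifs in this window, and Cxcl13 had TATAAA beginning 46 bases before its start. By the GENCODE positions, the windows of Ccl22 and Ccl19 lie partly inside the genes and that of Ccr4 wholly inside. Over 27018 promoters of the same length, TTCNNNNGAA occurred in 5.86%, TTCNNNGAA in 7.18%, TATAAA in 13% and the NF-kB consensus in 7.01%. A match describes the letters and is not a measured binding site.

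The conventional dendritic-like cells, 324 cells of the resident type that samples antigen, showed the 2 Ccr4 ligands in another proportion. They held 315 Ccl17 UMIs, 59.9% (55.6 to 64.1) of the library's, and 74 Ccl22 UMIs, 8.88%. Per Ccl17 UMI there were 0.235 Ccl22 UMIs (0.18 to 0.303) in conventional dendritic-like cells and 4.58 (3.82 to 5.52) in migratory cells, so the balance differed beyond counting error. It rested on few cells: only 19 of the 324 cells had any Ccl17, and 2 cells held 128 and 88 UMIs. Without those 2 cells the ratio was 0.667 (0.481 to 0.919). This was still under that of the migratory cells, where leaving out the 2 highest cells gave 4.77 (3.81 to 6.01). Without the cells highest in Ccl17 and in Ccl22, the ratio in conventional cells was 0.134 (0.0848 to 0.205). Of the 74 Ccl22 UMIs of conventional cells, 60 lay in a cluster of 55 cells rich in microglia markers, 41 of these in 1 cell. The size of the gap depended on the clustering. Migratory cells held 659 Ccl22 and 144 Ccl17 UMIs in the main clustering, but 718 and 305 with both libraries clustered together. They held 667 and 272 at a clustering resolution of 0.5, and 726 and 291 at 2 or with doublets kept. In these settings their ratio was thus lower. Conventional cells held 99 and 216 at 0.5, and 39 and 197 at 2.

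Which class held most Ccl17 depended on the clustering. In 4 of the 6 other clusterings tried, migratory and not conventional cells held most Ccl17 UMIs, between 51.7% and 58%, where the main clustering gave them 27.4%. Without the cell of 128 UMIs, the conventional class fell from 80.2 to 47.8 CPM and still held 47% of the remaining UMIs in the main clustering. By level the migratory class, at 383 CPM, stood above it with or without that cell. The second cell, with 88 UMIs, lay in a cluster of 55 cells with a median of 20436 UMIs and 8347 CPM of summed microglia markers, against 452 to 1033 CPM in the other conventional clusters. That cell held 276 microglia-marker UMIs, and the part of mixed droplets in its value was not tested.

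Among the conventional clusters, the one led by Clec9a and Xcr1, genes of the cross-presenting type 1 lineage, had 4 Ccl17, 1 Ccl22 and 6 Ccr7 UMIs in 83 cells. The 2 clusters led by Mgl2, a gene of the type 2 lineage, held 126 and 153 Ccl17 UMIs in 55 and 53 cells. Only 6 and 4 of these cells had any, and without the highest cell of each cluster 38 and 25 UMIs remained. The remaining conventional clusters, led by Ciita and by Cd209a, had 13 and 19 Ccl17 UMIs in 76 and 57 cells. An unnamed cluster of 64 cells, in which conventional dendritic and monocyte markers stood together, had 108 Ccr7, 33 Ccl22 and 29 Ccl17 UMIs, and thus 164 CPM of Ccr7.

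**Figure D3:**
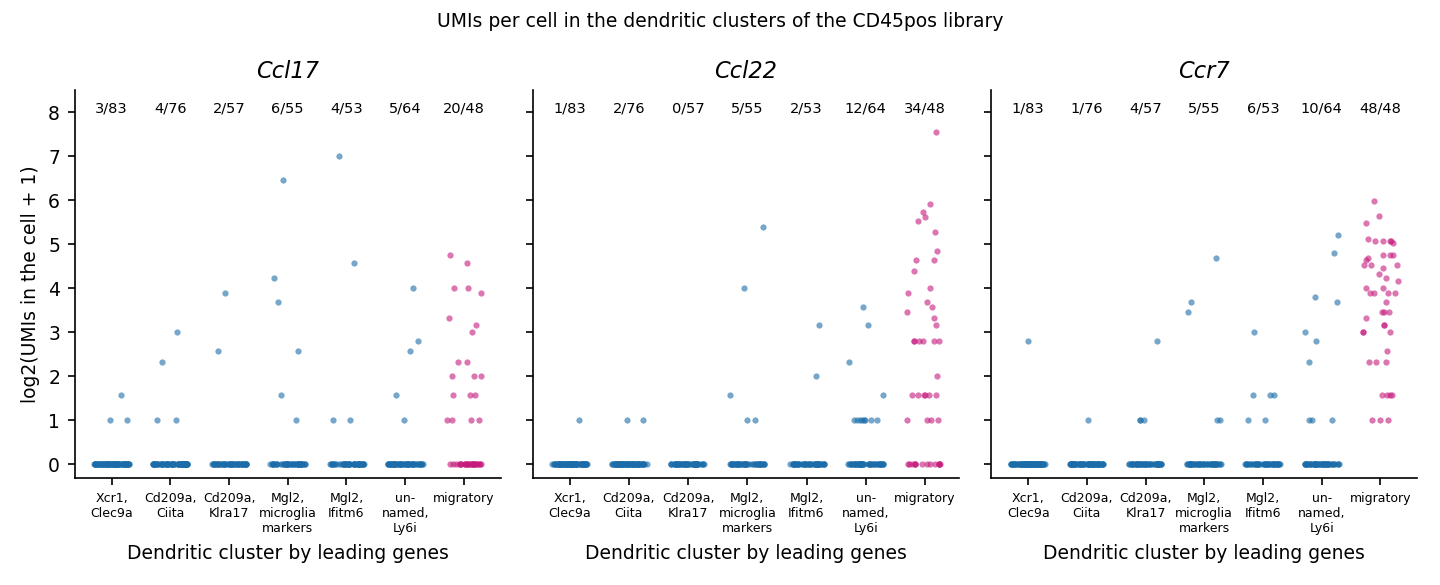
UMIs of Ccl17, Ccl22 and Ccr7 in every cell of the dendritic clusters of the CD45pos library, as log2(UMIs + 1), with the cells that had a UMI over all cells written above; the migratory cells are pink. All 48 migratory cells have Ccr7, 34 have Ccl22 and 20 have Ccl17, and the 2 highest Ccl17 cells stand in conventional clusters.

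Ccr4, the receptor of Ccl17 and Ccl22, was a T cell transcript in these data. T cell-like cells held 133 of its 150 UMIs, 88.7% (82.5 to 93.3), at 10.1 CPM (8.44 to 12) and in 97 of 2611 cells, with at most 4 UMIs in a cell. Type 2 innate lymphoid-like cells, tissue lymphocytes that make interleukin-5 and interleukin-13, had a similar level of 9 CPM (4.79 to 15.4) from 13 UMIs in 11 of 177 cells. The 2 classes could not be ordered. Microglia-like cells had 1 Ccr4 UMI in 2877 cells at a median depth of 9591 UMIs, against 4669 in T cell-like cells, and neither NK cell-like nor conventional dendritic-like cells had any, which allows up to 2.43 and 0.763 CPM.

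Among T cells the regulatory subset stood highest. In the 71 T cell-like cells with a UMI of Foxp3, the factor that defines regulatory T cells, Ccr4 was at 68.8 CPM (47.9 to 95.6), found in 20 cells. In the 848 CD4 conventional cells (a Cd4 UMI without Foxp3 or Cd8a) it was at 13.7 CPM (10.4 to 17.6), found in 46 cells. In the 737 CD8 cells it was at 0.615 CPM (0.127 to 1.8), from 3 UMIs. The first level was 5.02-fold (3.21 to 7.74) above the second, and the second 22.3-fold (7.26 to 111) above the third, both beyond counting error. A gate on UMIs leaves many cells out: 893 T cell-like cells, with a median of 1640 UMIs, had none of the 3 genes, and their Ccr4 level was 12.2 CPM (8.46 to 17.1). The cluster led by Foxp3, formed without Ccr4, gave 77.8 CPM (55.1 to 107) over 75 cells.

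Ccr7 in T cells was low beside the migratory dendritic cells. T cell-like cells held 264 UMIs, 19.2% of the library's, at 20 CPM (17.7 to 22.6) and in 180 of 2611 cells. The 42 B cell-like cells, a class also under 50 cells, had 56.5 CPM (34.5 to 87.2), with a UMI in 13 cells. By T cell gate the levels were 47.2 CPM (30.2 to 70.2) in regulatory, 19.9 (15.9 to 24.5) in CD4 conventional and 13.5 (10.5 to 17.2) in CD8 cells. The ratio of CD4 conventional to CD8 cells was 1.47 (1.05 to 2.05), and that of CD4 conventional to regulatory cells 0.421 (0.266 to 0.692). The cells with none of the gating genes had 26.9 CPM (21.2 to 33.8), and a shallow T cell cluster led by Gm43065 had 52.2 CPM (36.5 to 72.2).

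In NK cell-like cells Ccr7 was at 4.05 CPM (1.31 to 9.44), and type 2 innate lymphoid-like cells had no UMI, which allows up to 2.08 CPM. Microglia-like cells, taken as a class without the receptor, had 0.921 CPM and a UMI in 0.799% of cells at more than the depth of T cell-like cells, 6.89% of which had one. The interval of conventional dendritic-like cells, at 20.4 CPM, overlaps that of T cell-like cells. Of their Ccr7 UMIs, 49 lay in the cluster of 55 cells rich in microglia markers, 25 of these in 1 cell. The other conventional clusters had 6, 1, 9 and 15 UMIs. The part of mixed droplets in the class level was not tested. Ccr4 and Ccr7 met in 10 T cell-like cells, where the product of their shares gives 6.69.

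**Figure D4:**
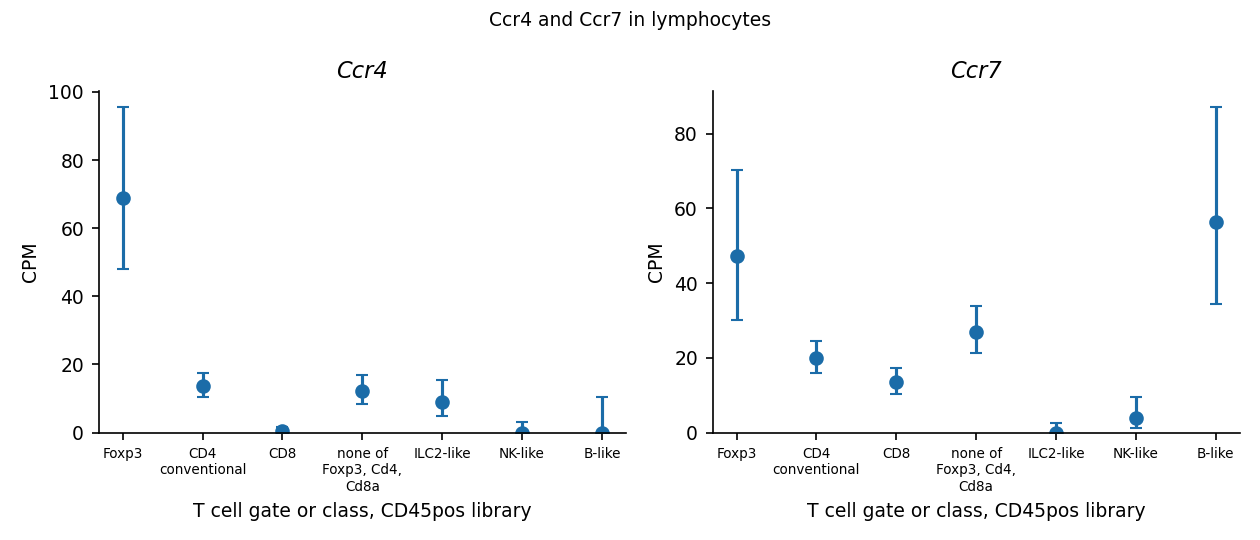
Ccr4 and Ccr7 in CPM with 95% Poisson intervals (counting error) in T cells gated on UMIs of Foxp3, Cd4 and Cd8a, and in type 2 innate lymphoid-like (ILC2-like), NK cell-like and B cell-like cells of the CD45pos library; both axes start at 0. Ccr4 is highest in cells with Foxp3 at 68.8 CPM, and Ccr7 is highest in B cell-like and Foxp3 cells, whose intervals overlap. For Ccr7 the Foxp3 interval also overlaps that of T cells with none of Foxp3, Cd4 and Cd8a.

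Cxcl13, the B cell chemoattractant, came from a few strongly loaded myeloid cells. Of 8432 CD45pos cells 110 had a UMI, 56 of them a single one, while the highest cell held 266 UMIs (18.2% of the total) and the 10 highest held 890 (61%). Microglia-like cells, the brain's resident macrophages, held 1121 of the 1460 UMIs, 76.8% (74.5 to 78.9), in 61 of 2877 cells, at 33.3 CPM (31.4 to 35.3) or 25.4 without the highest cell. NK cell-like cells had a Cxcl13 UMI in 0 of 231 cells at a median depth of 4939 UMIs, where 3 cells would be 1.3%. The share in microglia-like cells was 2.12% at a median depth of 9591 UMIs.

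A cluster of 912 microglia-like cells led by Saa3, which encodes an acute-phase protein, held 591 UMIs in 29 cells, at 86.7 CPM (79.9 to 94) and 73.9 without its highest cell. Its name rests on 13 detected microglia markers whose mean log2 fold over the other cells was low (0.54), against 2.43 in the cluster led by Slc2a5 and P2ry12. A cluster led by Tnf held 345 UMIs, 266 of them in 1 cell, and fell from 64.4 to 14.8 CPM without it. The clusters led by Slc2a5 and P2ry12 (homeostatic), by Marco and by Ccne1 (cycling) had 13.2, 8.37 and 4.01 CPM. With each cluster's highest cell left out, these 3 came to 6.14, 3.66 and 2.35 CPM, and the Saa3-led cluster stayed above all 4 others. Perivascular macrophage-like cells, which line brain vessels, had 99.6 CPM (76.5 to 127) in 6 of 68 cells, and 35.5 CPM without a cell of 41 UMIs.

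T cell-like cells are known as a Cxcl13 source in human disease, and here they held 146 UMIs. Of these, 134 lay in 1 cell of the cluster led by Cd8b1 and Cd8a, and that cell also held 149 microglia-marker and 92 T cell-marker UMIs in 22920 UMIs. Without it the class had 0.912 CPM. In the CD45neg library a cell of 2709 UMIs held 109 Cxcl13 UMIs, 4.02% of all its molecules, with no Ptprc and 3 microglia-marker UMIs, in an unnamed cluster led by Spp1 and Ccl3. Without that cell, 1 Cxcl13 UMI remained among CD45neg cells.

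**Figure D5:**
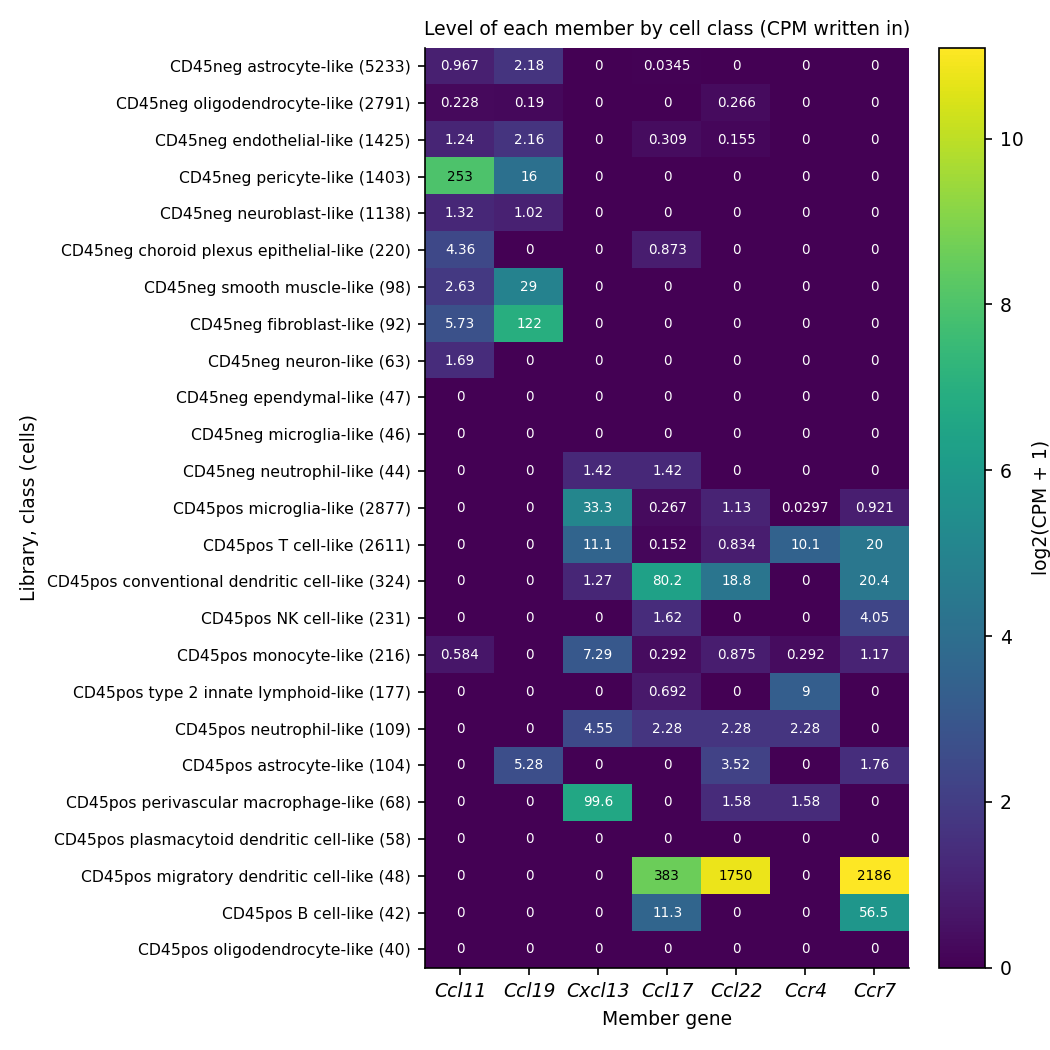
CPM of each member gene (columns) in every named class of at least 40 cells (rows, with library and cell number), coloured by log2(CPM + 1) with the CPM written in. Ccl11 peaks in pericyte-like cells (829 of their 1297 UMIs from the Il6-led cluster) and Ccl19 in fibroblast-like cells of the CD45neg library, Ccl17, Ccl22 and Ccr7 peak in the 48 migratory dendritic-like cells, and Cxcl13 in microglia-like and perivascular macrophage-like cells.

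The partner receptors and ligands were sparse. Ccr3, the eosinophil receptor of Ccl11, had 58 UMIs in 48 CD45pos cells, of which 22 were in T cell-like and 20 in microglia-like cells, and 0 UMIs among CD45neg cells. Of 7 eosinophil markers, Siglecf had 423 UMIs in 364 CD45pos cells (4.32%). Ear1 was at 0 in both libraries, Epx had 79 UMIs among CD45neg cells and 1 among CD45pos cells, and Prg2 had 59 UMIs in 3 CD45pos cells. No cell in either library had 3 or more of the markers, and neither of the 2 CD45pos cells with 2 markers had Ccr3. Cxcr5, the receptor of Cxcl13, had 52 UMIs in the CD45pos library: 20 in T cell-like, 11 in migratory dendritic-like (29.2 CPM) and 10 in B cell-like cells (28.2 CPM). Ccl21a, the other Ccr7 ligand, and Ccl26, an eotaxin, had 0 UMIs in both libraries. Ccl21a has near-identical copies whose shared reads could not be assigned.

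Ccl24, an eotaxin like Ccl11, had 307 UMIs in the CD45pos library, 105 of them in 1 unnamed cell, and stood at 53.7 CPM in perivascular macrophage-like cells. Ccr8, a receptor found on type 2 and regulatory lymphocytes, had 42 UMIs, 27 of them in type 2 innate lymphoid-like cells (18.7 CPM). Of the scavenging receptors that bind chemokines without signalling, Ackr1 had 1027 UMIs in the CD45neg library and 768 of these in endothelial-like cells (119 CPM), Ackr2 had 3, and Ackr4, which takes up Ccl19 and Ccl21, had 22.

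By list, 9 of the 9 eosinophil-axis genes with at least 20 UMIs were at least 2-fold higher in the CD45pos library, among them Ccl5, a ligand of Ccr3 and other receptors, at 7146 CPM in NK cell-like, 5236 in migratory dendritic-like and 4401 in T cell-like cells. Of 10 genes of the Ccr4 axis and its skin or mucosal relatives, 4 were higher in the CD45pos and 3 in the CD45neg library, Ccl20 (146 against 0 UMIs) among the latter. Of 15 lymphoid tissue genes, 9 were higher in the CD45pos and 2 in the CD45neg library, and of 4 scavenging receptors 1 and 2. The background again is 16.5% and 40.9% of genes. In the migratory dendritic-like cells, Relb and Nfkb2, which encode the subunits of the non-canonical NF-kB pathway, stood at 789 CPM (702 to 884) and 345 CPM (289 to 410), and Il7r at 566 CPM. In conventional dendritic-like cells Relb and Nfkb2 stood at 57.8 and 66.9 CPM. Ltb, a cytokine subunit that builds lymphoid tissue, was at 771 CPM in T cell-like cells. Its receptor gene Ltbr stood at 60.7 CPM in pericyte-like and 45.9 CPM in fibroblast-like cells. It was not particular to these, with 51.3 CPM in endothelial-like and 41.8 CPM in microglia-like cells.

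The genes whose levels over classes were most like a member's were found by Pearson's r of log2(CPM + 1). The classes of a library share depth and free RNA, and r is a description over few points. Over 9 CD45neg classes, Ccl11 was most like Il11 (0.96), Il6 (0.94) and Saa1 (0.91), and Ccl19 was most like H2-Ab1, Col3a1 and Rab7b (0.97 each). The 50 Il6-led cells, counted in the pericyte-like class, held 731 of the library's 952 Il6 UMIs and 410 of its 631 Il11 UMIs. Over 10 CD45pos classes, Ccr4 was most like Tnfsf11 (0.90), Tnfrsf4 (0.89) and Tnfrsf25 (0.89), and Cxcl13 most like Tgfbr2 (0.95), Hprt (0.93) and BC055324 (0.92). For Ccl17 they were Slco1a4 (0.94), Xcr1 (0.92) and H2-DMb2 (0.90), for Ccl22 H2-Ob (0.89), H2-DMb2 (0.87) and Mdh2 (0.87), and for Ccr7 Zbtb32 (0.91), Itgae (0.91) and Adgrg5 (0.90). These 10 classes leave out the 48 migratory cells. With classes of at least 40 cells, chosen after seeing the data, the genes most like Ccl22 were Cacnb3 (0.93), Gm13546 (0.92) and Zmynd15 (0.90), of which Cacnb3 and Zmynd15 are markers that named the class. The other lists changed too: Ccl11 was then most like Il11, Gm13470 and Nts, Ccl19 like Col3a1, Tfap2b and Loxl2, and Ccl17 like H2-DMb2, Map3k14 and Relb. For Ccr4 they were Tnfsf11, Il13 and Tnfrsf25, for Ccr7 Tmem131l, B3gnt5 and 2200002D01Rik, and for Cxcl13 Fam220a, Gm13479 and Zfyve28.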

How the data were processed

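UMI counts per gene and cell barcode were deposited by the authors for the 2 libraries (10x 3' v3), made with Cell Ranger 6.1.2 against mm10, per the file headers and the submitters' processing notes. Barcodes with at least 500 UMIs, 200 genes and at most 20% mitochondrial UMIs were kept, and doublets called by Scrublet (scanpy 1.11.5) were removed: 876 (6.03%) of CD45neg and 177 (2.04%) of CD45pos barcodes. The expected shares given to Scrublet were higher, 11.6% and 6.93%, so doublets may remain among the kept cells. Each library was clustered alone (2000 variable genes without the 7 members and the 4 pathway lists, 30 components, 15 neighbours, Leiden resolution 1), and mixed clusters were divided again. Clusters were named from 26 fixed marker lists by fold over all other cells. The naming limits were revised 3 times after clusters had been seen. Members and lists were chosen with earlier results of these data known. Named genes are the 7 members, their receptors and ligands, the 3 highest of a list in a class, and the 3 most alike. With 1 library per gate no test was made. Poisson, conditional binomial and Clopper-Pearson intervals cover counting error only. They were tested on simulated Poisson and binomial counts, which lack the loading of UMIs into single cells seen here. How the intervals behave under such loading was not tested. Gene positions are from GENCODE (GRCm38, the assembly of mm10). Alternatives were scalings, filters, doublets, resolutions, joint clustering and thinning.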

Additional observations from a re-analysis of the deposited data

How the results depend on the processing

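No ratio changed its sign, but the class with most UMIs changed for 3 members. For Ccl17 it became migratory dendritic-like in 4 of 6 clusterings, for Ccl11 unnamed cells with the stricter filter (54.1%), and for Ccl19 fibroblast-like with joint clustering (64 UMIs, against 62 in astrocyte-like and 54 in pericyte-like cells). Of 199 values recomputed under other settings 143 moved by less than the limit set for them and 56 by more. Of 19 added after seeing the data 10 moved. The limit was the counting interval, except for the 2 shares of all genes, which are counted among the 143 by a wider fixed band. Scaling by TMM or by the median of ratios shifted all genes by 0.47 or 0.52 (log2), kept the direction of all 7 members, and put the Cxcl13 log2 ratio at 4.36 or 4.41. It was 10.67 without the highest CD45neg cell. The order of values below is joint clustering, resolution 0.5, resolution 2, doublets kept, stricter filter and members among the variable genes, where a setting moved the value.
The Ccl11 share in pericyte-like cells was 77.1%, 94.6%, 91.8%, 92.1%, 41.5% and 91.5%, and its level was 220 CPM (joint), 286 (resolution 0.5) and 124 (stricter). It was 228 CPM without the highest cell and 98.6 without the Il6-led cluster. The Ccl19 share there was 20.8% (joint, 10.7 CPM) and 38.8% (members variable). The Ccl17 share in conventional dendritic-like cells was 13.1%, 41.1%, 37.5% and 17.1% in the first 4 settings, at 21.3, 48.2, 45.5 and 26.6 CPM, and 93.6 CPM with the stricter filter. Without the highest cell it was 47% and 47.8 CPM, and without the cluster rich in microglia markers 66.1 CPM.
In migratory dendritic-like cells the Ccl22 share was 86.2% (joint), 87.2% (resolution 2), 86% (doublets kept), 85.6% (stricter) and 86% (members variable). Its level was 1172, 1606, 1291, 1291, 1566 and 1619 CPM, and without the highest cell 73.1% and 1299 CPM. The Ccr7 share there was 66.6% (joint), 66.8% (resolution 2), 65.5% (doublets kept), 65% (stricter) and 62.7% (members variable). Its level was 1495, 2004, 1634, 1634, 1934 and 1950 CPM, and 92.5% of the joint class had a UMI. Cxcl13 in microglia-like cells was 71.6% and 25.4 CPM without the highest cell. The Ccr7 share of T cell-like cells was 7.98% with the stricter filter.
Thinning to 1000 UMIs gave shares of cells of 6.45% (Ccl11), 1.92% (Ccl17), 0.944% (Ccl19), 41.3% (Ccl22), 0.804% (Ccr4), 73.9% (Ccr7) and 0.934% (Cxcl13) in the leading classes. It gave 1.78% for Ccr4 in type 2 innate lymphoid-like and 2.46% for Ccr7 in T cell-like cells. Thinning lowers a share by its construction, and the cause of the other moves was not tested. No paired analysis was possible because each group has 1 library. Without replicates, differences between animals are not measured.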

Other observations

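Other type 2 and lymphoid genes on the lists were also carried by few cells. Il13, which encodes a type 2 cytokine, had 606 UMIs in 15 CD45pos cells, of which 560 were in 1 T cell-like cell and 30 in type 2 innate lymphoid-like cells. Il5, the eosinophil growth factor, had 101 UMIs, 67 of them in 27 of the 177 type 2 innate lymphoid-like cells and 21 in 1 T cell-like cell. Il4 was divided between T cell-like (46 UMIs in 34 cells) and type 2 innate lymphoid-like cells (44 UMIs in 26 cells). Ccl8, a ligand of Ccr8 in mice, had 276 UMIs in perivascular macrophage-like cells (436 CPM), found in 29 of 68 cells. Ccl1, the other Ccr8 ligand, had 54 UMIs in 5 NK cell-like cells, 40 of them in 1 cell. Ccrl2, a receptor that presents chemerin, stood at 2228 CPM in 109 neutrophil-like cells of the CD45pos library. These genes were picked after their values had been seen.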
